A study of Mus musculus with 298 samples.

Results

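The synaptic vesicle release machinery was described gene by gene in single neurons of the mouse thoracic sympathetic ganglion. Its members were all table rows named as a synaptotagmin (Syt), complexin (Cplx1 to Cplx4), synapsin (Syn1 to Syn3), numbered syntaxin (Stx), syntaxin-binding protein (Stxbp), vesicle-associated membrane protein (Vamp), Rab3 (Rab3a to Rab3d), Rims, Sv2 or Unc13 gene, together with Snap23, Snap25, Snap29, Snap47, Snap91 and Nsf. The synaptotagmin-like Sytl genes were left out. This gave 73 of the 16892 rows, which held 1.48% of all counts. Of these, 55 reached 20 counts in total, spread over 3 or more of the summed libraries described below, and were tested. The other 18 were too sparse to test.

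Neurons store transmitter in vesicles that fuse with the plasma membrane when calcium enters. Fusion is driven by SNARE proteins, of which Vamp sits on the vesicle and syntaxin and Snap25 on the plasma membrane, while synaptotagmins sense calcium, complexins clamp and help the assembled SNAREs, and syntaxin-binding and Unc13 proteins prepare them. Synapsins tether reserve vesicles, Rab3 proteins and their partner Rims bring vesicles to the release site, Sv2 proteins are vesicle glycoproteins, and Nsf takes used SNARE complexes apart. Sympathetic neurons release noradrenaline or acetylcholine, with peptides, from such vesicles onto peripheral organs.

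The mice, male and female, were a cross of R26R-Tomato with Wnt1-Cre, in which Cre marks cells derived from the neural crest, and were P11 to P38 old. The thoracic ganglia were dissociated with enzymes, single cells were inspected by eye on medium microfluidic chips, and polyadenylated RNA was sequenced after Tn5 fragmentation, all per the labels. Of 298 cells, the labels name 213: 8 Ach1 and 8 Ach2 cells, called cholinergic here, 4 Glutamatergic cells and 193 noradrenergic cells, with 85 left Unclassified. The noradrenergic cells comprise 10 of Noradrenergic1, 39 of Noradrenergic2, 18 of Noradrenergic4 and 23 of Noradrenergic5, and the rest are Noradrenergic3. All groups share the cross and the ganglion, and no group was treated. How the identities were assigned is not given in the sources used here. If the same transcriptomes served for it, the p-values below are not independent evidence that the identities differ.

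Cells with the same sex and age form a collection, and there were 10 of these. The 5 cells labelled P16 female held 0 counts of Xist and 18 of the Y-linked Ddx3y, which goes against their sex label; they do not enter the comparison of the sexes. Because the labels name no animals, the collection served as the replicate, and p-values measure only the spread between these samples. Counts were summed per identity and collection into 44 libraries of 1 to 43 cells, 16 of which are a single cell. A level is the count of a gene per 10000 counts of its library, and means ± SD are over collections. A noradrenergic level with no identity named pools all noradrenergic cells of a collection, so identities with more cells weigh more. Cholinergic cells were present in 7 collections, Glutamatergic cells in 3 and noradrenergic cells in all 10. In the small identities a library is mostly 1 cell, with 2 cells for Ach1 at P31 female, Ach2 at P38 male and Glutamatergic at P29 male and 4 for Ach2 at P29 male. Total counts ran from 7225 to 81589 per cell. A level of 0 allows a true level of up to 3 counts of the library total, which is 2.15 in the shallowest cholinergic cell, Ach1 at P30 male, and 0.302 in the Ach2 library of P29 male, from counting error alone. For members that some cells lack, a lower summed level cannot be told apart from fewer cells with the gene, while Syt1 and Syn2 had a count in every one of the 298 cells.

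The labels were checked against marker genes. Summed levels of 6 noradrenergic genes (Th, Ddc, Dbh, Slc18a2, Slc6a2 and Npy) had a median per cell of 225 (56.3 to 363) in noradrenergic, 16.9 (7.41 to 230) in cholinergic and 7.99 (0.546 to 189) in Glutamatergic cells. The 4 cholinergic genes (Chat, Slc18a3, Slc5a7 and Vip) summed to between 31.3 and 231 in every cholinergic cell and to at most 4.71 in any noradrenergic cell. The 5 glutamatergic and sensory genes (Slc17a6, Calca, Tac1, Scn10a and Runx1) summed to between 87.3 and 214 in Glutamatergic cells and to at most 1.20 in noradrenergic cells. Most of the Glutamatergic sum was Calca, at 113 ± 46.2, and Tac1, at 38.8 ± 13.2, while Slc17a6 was at 3.34 ± 2.94. However, 4 Ach1 cells and 1 Glutamatergic cell held at least 10 counts of Th, the noradrenaline pathway's rate-limiting enzyme. One of these, an Ach1 cell of the P31 female collection, had 61 counts of Th, 112 of Vip and 0 of both Chat and Slc18a3. The Glutamatergic cell, from the P33 female collection, had 130 counts of Th and 313 of Calca. The 8 members called in cholinergic cells and the 4 called in Glutamatergic cells are given with and without these 5 cells.

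Other cell markers also moved with the groups. The 14 satellite glia and Schwann cell genes summed to a median of 7.17 (1.62 to 78.5) in noradrenergic, 38 (4.81 to 72.5) in cholinergic and 41.9 (20.0 to 61.1) in Glutamatergic cells. Of the 13 of them that were tested, 2 were higher and 1 lower in cholinergic than in noradrenergic cells, where 2.17% and 2.4% of all genes were. The 12 immediate-early and stress genes summed to 10.4 (1.32 to 50.0), 21.3 (4.04 to 82.1) and 42.2 (11.5 to 55.0). Endothelial markers were at 0 for all 4 genes in both cholinergic and Glutamatergic cells. The part of glial and stress RNA in the results below was not tested beyond a fit with the glial level as covariate, named where it changed a call.

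Upstream sequences are shown for the 4 members that were lower than in noradrenergic cells in both the cholinergic and the Glutamatergic identities. They are RefSeq windows of the GRCm38.p6 build, 250 bases that end just before an annotated transcript start, and 54 of the 73 members had such a window. Each sequence runs 5′ to 3′ along the gene's strand, and capitals mark a GC box (GGGCGG), the short form of the cAMP response element (TGACG) or a TATA box (TATAAA), on either strand. The Rab3b window lies at chr4:108878820-108879069 (plus strand), that of Cplx2 at chr13:54302306-54302555 (plus), that of Syn2 at chr6:115134652-115134901 (plus) and that of Syt1 at chr10:109010976-109011225 (minus). Syn2 and Syt1 each have another window at a start further into the gene, which is not printed and holds none of these motifs; the outermost start was taken.
Rab3b: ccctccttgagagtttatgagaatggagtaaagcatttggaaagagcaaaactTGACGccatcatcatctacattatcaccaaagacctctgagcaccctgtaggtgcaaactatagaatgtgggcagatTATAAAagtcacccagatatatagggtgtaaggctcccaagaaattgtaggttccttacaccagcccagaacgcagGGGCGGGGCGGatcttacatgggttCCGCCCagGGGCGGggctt
Cplx2: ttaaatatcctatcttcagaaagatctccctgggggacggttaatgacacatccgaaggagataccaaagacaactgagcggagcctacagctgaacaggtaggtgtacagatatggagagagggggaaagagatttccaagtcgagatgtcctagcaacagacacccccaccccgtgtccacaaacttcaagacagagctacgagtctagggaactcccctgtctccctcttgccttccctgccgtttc
Syn2: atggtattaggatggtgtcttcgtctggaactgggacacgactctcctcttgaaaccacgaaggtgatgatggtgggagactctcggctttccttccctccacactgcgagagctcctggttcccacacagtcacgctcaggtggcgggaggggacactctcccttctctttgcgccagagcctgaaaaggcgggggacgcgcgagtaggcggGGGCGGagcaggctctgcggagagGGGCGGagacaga
Syt1: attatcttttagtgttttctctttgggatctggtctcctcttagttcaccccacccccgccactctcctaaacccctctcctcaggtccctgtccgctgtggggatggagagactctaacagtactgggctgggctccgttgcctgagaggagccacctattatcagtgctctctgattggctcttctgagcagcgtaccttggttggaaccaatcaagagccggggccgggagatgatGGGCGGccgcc
None of the 3 marked motifs was found in all 4 printed windows: 4 GC boxes, 1 TGACG and 1 TATAAA were found for Rab3b, 2 GC boxes for Syn2, 1 GC box for Syt1 and none of the 3 motifs for Cplx2. GENCODE annotation has no transcript that starts at the end of this Cplx2 window. It starts the gene downstream, at chr13:54371349, so the window does not describe that start. A GC box was present in 32.7% of 32851 RefSeq windows of this length and in 42 of 68 windows of members (61.8%). TGACG was present in 17.8% of all windows and 20.6% of those of members, and TATAAA in 12.4% and 7.35%. A match is a description of the letters and not evidence of binding.

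Levels were compared between genes only after division by transcript length, as counts per 10000 counts per kilobase of the longest annotated transcript, over all 298 cells. Whether the deposited counts depend on length is not stated. On this scale the synaptotagmin Syt4 was the highest member at 4.84, followed by Snap25 at 4.12, Rab3b at 3.79, Syt1 at 3.59, Syn2 at 3.22 and Rab3a at 2.52. Snap47, Syt11, Cplx2 and Vamp2 lay between 1.26 and 1.93, and Cplx1 and Stx12 were at 0.948 and 0.936. At the other end, Rims1 (5 counts over both of its table rows), Cplx3 (2 counts), Rims4 (2), Stx11 (2), Sv2b (2), Stx19 (4), Stxbp6 (4), Syt6 (6), Unc13d (11), Syt10 (18), Rims3 (22), Syt14 (23) and Vamp5 (23) were too sparse to test. Syt13, Syt15 and Unc13c had no count in any cell. Several genes known from central synapses were thus at or near 0 here, among them Rims1, Sv2b and Unc13c. Both Rims1 rows carry a locus suffix, and how reads were assigned to them is not stated.

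Summed over all members, the level per cell had a median of 149 (86.7 to 257) in noradrenergic cells, 118 (104 to 198) in cholinergic and 109 (98.9 to 128) in Glutamatergic cells. The ranges overlapped. Cholinergic cells, Ach1 and Ach2 weighted equally, were compared with the 5 noradrenergic identities, weighted equally too, by the quasi-likelihood test of edgeR. It used Benjamini-Hochberg adjustment over 11555 genes and a call at an adjusted p under 0.05. Pooled levels do not weight identities equally and lack the TMM scaling of the fit, so a fold change can differ from the levels beside it. Of the 55 members tested, 7 were lower (Cplx2, Rab3b, Syt9, Syn2, Rab3d, Syt1 and Nsf), where 2.4% of all genes were lower, and 1 was higher (Syn3), where 2.17% of all genes were higher. The median log2 fold change was -0.25 over the members and -0.20 over all genes. The called members were 2 of 11 tested synaptotagmins, 1 of 2 complexins, 2 of 3 synapsins, 2 of 4 Rab3 genes and Nsf.

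Glutamatergic cells were compared with the same noradrenergic libraries, so the comparisons share their controls. Here 4 of the 55 members were lower (Syt1, Rab3b, Cplx2 and Syn2), against 1.01% of all genes, and 0 were higher, against 1.62% of all genes. edgeR gave 11 members at an unadjusted p under 0.05, in either direction, and DESeq2 called 5, of which Syt1 and Rab3b are among the 4 while Stx16, Syt16 and Vamp4 were higher. The median log2 fold change was -0.41 over the members and -0.39 over all genes. These calls rest on 4 cells: without the P29 male collection 0 members were called, without P31 female 1, and without P33 female 5. Glutamatergic cells set directly against cholinergic cells gave 1 member that was lower, Cplx1, against 0.545% of all genes, and 0 higher, against 0.969% of all genes, with 7 members at an unadjusted p under 0.05 by edgeR. DESeq2 did not call Cplx1 (adjusted p = 0.0999), and called Syt9 in its place, higher in Glutamatergic cells (2.53, adjusted p = 0.0133).

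**Figure D1:**
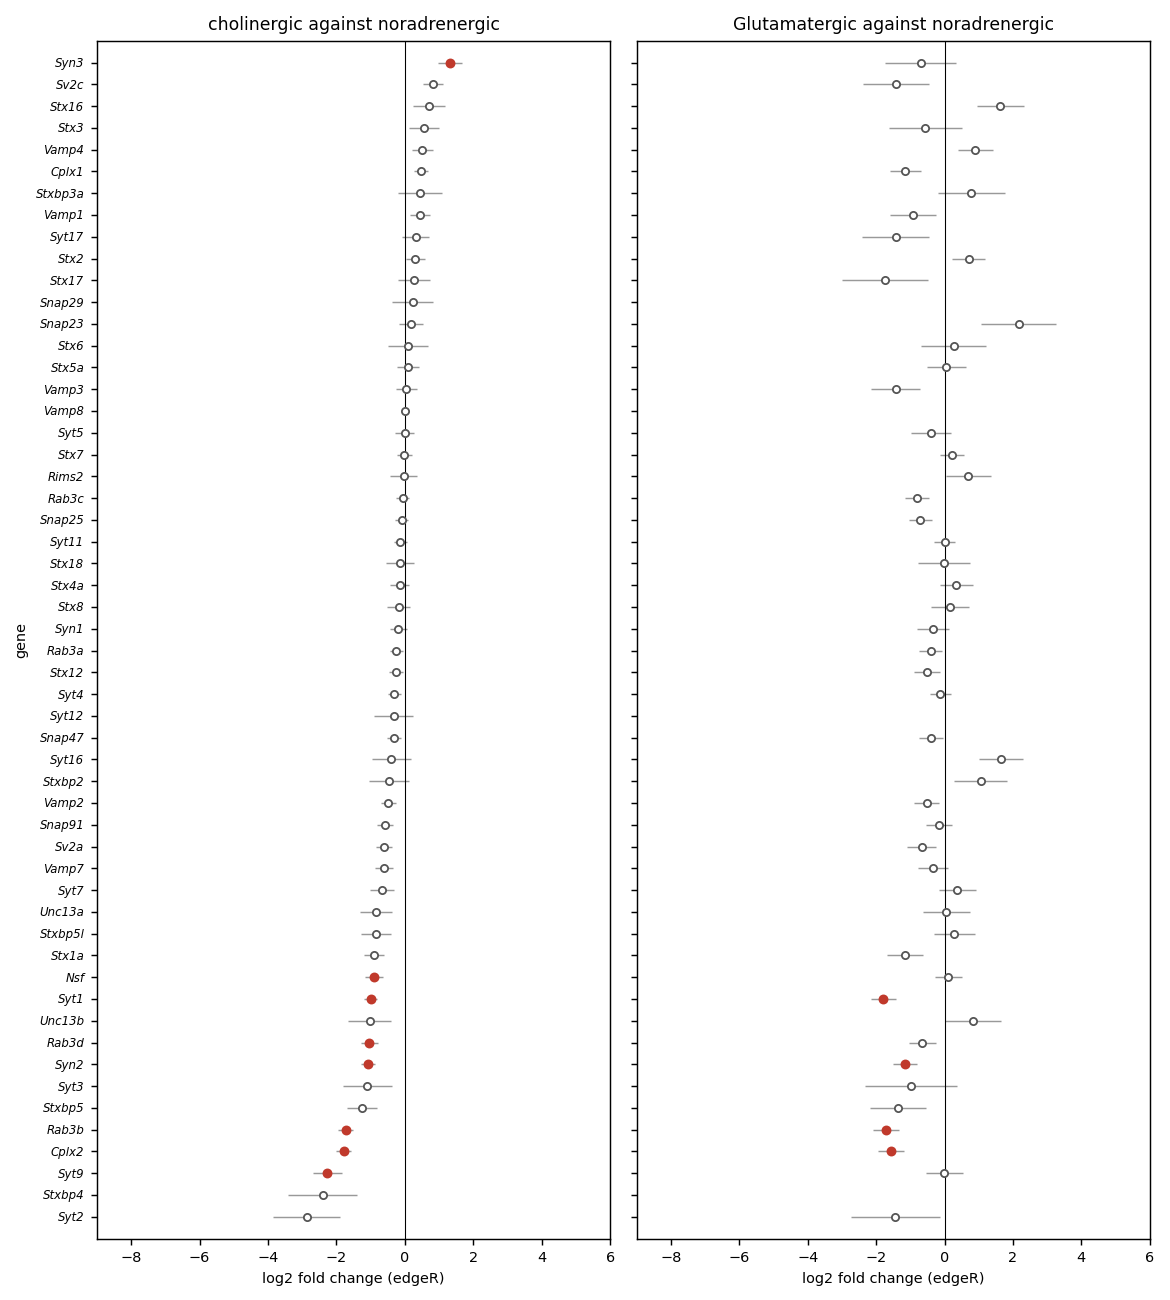
Log2 fold change (horizontal axis, points, with bars of ± SE) of tested members in cholinergic (left) and Glutamatergic (right) against noradrenergic cells. Filled red points passed an adjusted p of 0.05, 8 on the left and 4 on the right, and most other members lie near 0 or have wide bars. Snap29, Stxbp4, Syt12 and Vamp8 had no count in Glutamatergic cells and are not drawn on the right.

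The SNAREs themselves showed no member called by edgeR in either comparison, while DESeq2 called Stx16 and Vamp4 higher in Glutamatergic cells. Of the SNAREs of fusion at the plasma membrane, vesicle SNAREs included, 10 of 13 were tested, with a median log2 fold change of 0.02 in cholinergic and -0.63 in Glutamatergic cells. Snap25, the most abundant of them, had a level of 19.4 ± 2.69 (SD, n = 10; 13.4 lowest, 19.3 median, 23.8 highest) in noradrenergic, 20.2 ± 5.76 (n = 7; 8.62, 20.5, 25.9) in cholinergic and 15.1 ± 6.49 (n = 3; 9.67 to 22.3) in Glutamatergic cells. The 3 groups overlapped. Its log2 fold change was -0.10 ± 0.19 (SE; adjusted p = 0.888, edgeR) in cholinergic and -0.70 ± 0.33 (adjusted p = 0.341) in Glutamatergic cells. Without the Th-rich cells the Glutamatergic value was -1.22 (adjusted p = 0.0460). Stx1a, the syntaxin of neuronal release sites, was at 1.18 ± 0.32 in noradrenergic and 0.67 ± 0.47 in cholinergic cells, lower in 6 of 7 collections that held both, but did not pass (log2 fold change -0.90 ± 0.30, adjusted p = 0.0540).

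Vamp2, the vesicle SNARE of fast release, was at 2.57 ± 0.51 in noradrenergic and 2.25 ± 0.86 in cholinergic cells (log2 fold change -0.49 ± 0.21, adjusted p = 0.217). Among the SNAREs of endosomes, the Golgi and autophagosomes, 12 of 13 were tested, 0 were called by edgeR in either comparison, and the medians were 0.03 and 0.02. Stx12, an endosomal syntaxin and the syntaxin with the most counts, was at 3.04 ± 0.53 and 2.10 ± 1.03 with a log2 fold change of -0.27. Of the 7 syntaxin-binding proteins 6 were tested and 0 called, with medians of -0.66 and 0.06. Stxbp5, tomosyn, which holds SNAREs back, had -1.25 (adjusted p = 0.0762), and -3.46 (adjusted p = 0.0120) without the Th-rich cells.

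Of the synaptotagmins, 11 of 16 were tested, and 2 were lower in cholinergic cells. Syt1 is the fast calcium sensor of synchronous release. Its level in noradrenergic cells was 17.5 ± 3.32 (n = 10; 10.8 lowest, 18.4 median, 21 highest). In Ach2 cells it was 7.53, 7.96, 8.58 and 11 in the 4 collections, and in Ach1 cells it ran from 3.24 to 40.9 with a median of 7.57. All Ach2 values but the highest lay below every pooled noradrenergic collection, while in Ach1 the single P30 male cell, with 40.9, stood far above all of them. Noradrenergic1 by itself, given further below, overlapped the Ach2 values. On the log2 scale the cholinergic change was -1.0 ± 0.20 (adjusted p = 2.64e-05), and Syt1 was lower in 6 of the 7 collections that held both. It stayed called when any collection was left out, with values from -1.07 to -0.96, and was -0.88 (adjusted p = 0.00130) without the Th-rich cells.

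In the 3 Glutamatergic collections Syt1 was at 4.41 (P29 male), 5.18 (P31 female) and 6.07 (P33 female). All 3 were below every pooled noradrenergic and every pooled cholinergic collection. Noradrenergic1 by itself, given further below, overlapped these levels in some of its collections and lay above them in the others. Against noradrenergic cells this was a log2 fold change of -1.79 ± 0.37 (adjusted p = 0.000161). Without the P29 male collection it was -1.69 and no longer passed (adjusted p = 0.0557). Without the Th-rich cell it was -2.12 (adjusted p = 0.000118).

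Syt4, a synaptotagmin with an altered calcium-binding domain that is found on dense-core vesicles, did not follow Syt1. It was at 17.5 ± 4.05 in noradrenergic, 21.6 ± 9.28 in cholinergic and, by collection, 14.4, 31.4 and 20.2 in Glutamatergic cells. These values overlapped, and the log2 fold changes of -0.31 ± 0.19 (adjusted p = 0.451) and -0.13 ± 0.31 (adjusted p = 0.939) did not pass. As a share of the counts of both genes, Syt4 took 50.8% in pooled noradrenergic cells (41.6% to 68.6% by collection). It took 65.3% (50.9% to 72.2%) in cholinergic and 79.8% (76.6% to 85.8%) in Glutamatergic cells. Noradrenergic1 by itself had a Syt4 share above that of cholinergic cells, and its range by collection overlapped the cholinergic and the Glutamatergic range.

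Syt9, a close relative of Syt1 that also serves as a fast sensor, had the largest called fall in cholinergic cells. Its noradrenergic level was 0.952 ± 0.177 (n = 10; 0.663 lowest, 0.976 median, 1.22 highest). In Ach2 it was 0.358 (P16 female), 0 (P29 male), 0.195 (P30 female) and 0 (P38 male), which is 2 counts in 8 cells, and in Ach1 it ran from 0 to 1.21 with a median of 0.589. Ach2 lay below all pooled noradrenergic collections, while Ach1 overlapped them. Noradrenergic1 by itself overlapped Ach2, since its 2 cells of P38 male had Syt9 levels of 0 and 0.271. With Ach1 and Ach2 together, the log2 fold change was -2.26 ± 0.43 (adjusted p = 1.27e-05), and 5 of 7 collections had the lower level in cholinergic cells. It was -4.32 (adjusted p = 6.48e-05) in libraries of at least 2 cells and -2.48 (adjusted p = 7.94e-05) without the Th-rich cells. A count of Syt9 was found in 50.0% of the 16 cholinergic and 95.3% of the 193 noradrenergic cells, and in 33.3% and 80.6% after each cell was thinned to 15000 counts. In Glutamatergic cells Syt9 was at 0.490, 1.38 and 1.76, and the difference from cholinergic cells, 2.26 ± 0.69, did not pass (adjusted p = 0.0631).

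**Figure D2:**
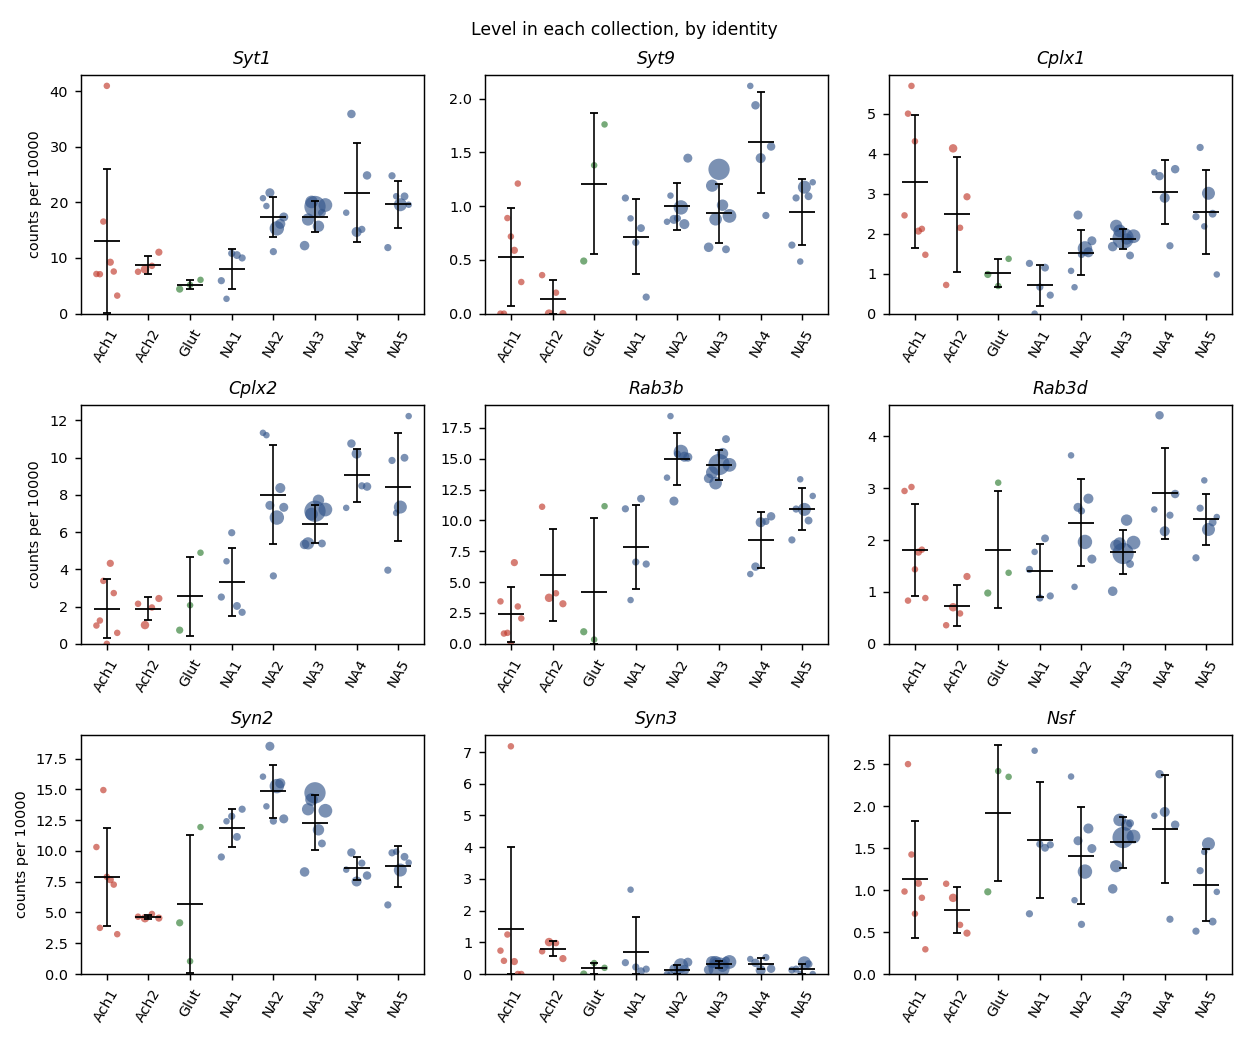
Levels (counts per 10000, vertical axis) of 9 members in the 8 named identities. Each point is a collection, sized by its number of cells, black bars are means, and error bars are SD, ended at 0. The identities are coloured red (Ach1 and Ach2), green (Glut, Glutamatergic) and blue (NA1 to NA5, Noradrenergic1 to Noradrenergic5). Cplx2 and Rab3b stand lower in Ach1 and Ach2 than in Noradrenergic2 and Noradrenergic3, and the single Ach1 cell of P30 male is the high point of Syt1 and Syn3.

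Complexins changed paralog by paralog. Cplx2 had a level of 7.66 ± 2.07 (n = 10; 5.27 lowest, 7.12 median, 11.3 highest) in noradrenergic cells. In Ach2 it was 2.15, 1.01, 1.95 and 2.43, in Ach1 it spanned 0 to 4.32 around a median of 1.25, and in Glutamatergic cells it was 0.734, 2.07 and 4.89. Every cholinergic and every Glutamatergic collection lay below every pooled noradrenergic one. Noradrenergic1 by itself, given further below, overlapped both groups in Cplx2. For Cplx2 the log2 fold change was -1.79 ± 0.22 in cholinergic cells (adjusted p = 3.47e-13), lower in 7 of 7 collections, and -1.57 ± 0.38 in Glutamatergic cells (adjusted p = 0.00294), lower in 3 of 3. The cholinergic call held in all alternatives that were run, at -2.11 (adjusted p = 8.62e-14) without the Th-rich cells, while the Glutamatergic one was lost with the glial level as covariate (-1.23, adjusted p = 0.0799) and by DESeq2 (-1.26, adjusted p = 0.0641). Of the 34 Cplx2 counts in Glutamatergic cells, 25 came from the Th-rich cell, and without it the value was -2.58 (adjusted p = 0.000124). In the fit after thinning it was -2.66, and in libraries of at least 2 cells -3.19.

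Cplx1, the other main complexin, went the other way in cholinergic cells without passing the test. It was at 1.63 ± 0.65 (n = 10; 0.659 lowest, 1.91 median, 2.37 highest) in noradrenergic and 2.99 ± 1.15 (n = 7; 1.75, 2.41, 4.31) in pooled cholinergic cells. The cholinergic level was above the noradrenergic one in all 7 collections that held both, although the ranges over all collections overlapped. The log2 fold change was 0.46 ± 0.21 (adjusted p = 0.233), and 0.75 (adjusted p = 0.0310) without the Th-rich cells. Glutamatergic cells had 0.979, 0.691 and 1.37, all below every pooled cholinergic collection. The difference between these 2 groups was -1.60 ± 0.47 (adjusted p = 0.0487). That call was lost in several alternatives, among them with no collection block (-1.47, adjusted p = 0.112) and when leaving out P29 male (-1.22, adjusted p = 0.703) or P31 female (-1.41, adjusted p = 0.348).

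Cplx2 therefore took different shares of the counts of Cplx1 and Cplx2. The share was 77.7% in noradrenergic cells (71.8% to 94.4% by collection) and 42.5% in cholinergic cells (0% to 67.7%). With identities pooled, these ranges did not overlap. By single identity they did, since the highest Ach2 collection lay above the lowest collection of every noradrenergic identity. In Glutamatergic cells the share was 72.3% (42.9% to 78.1%), where both genes were low and the highest value is that of the Th-rich cell. These shares are descriptions with no test.

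**Figure D3:**
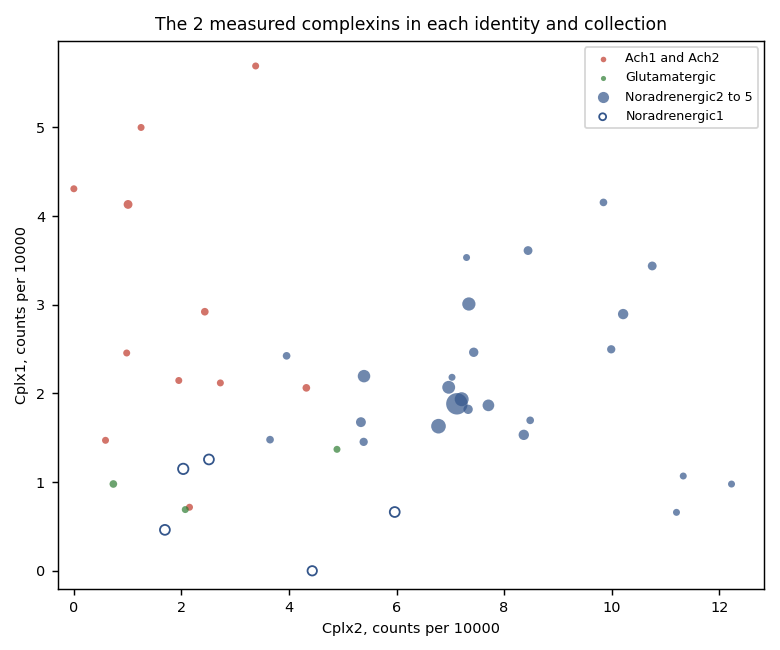
Level of Cplx2 (horizontal axis) against Cplx1 (vertical axis), both in counts per 10000, with a point for each identity and collection, larger where it holds more cells. Colours are as in the plot of levels by identity, and Noradrenergic1 is drawn as open circles. Most points of Noradrenergic2 to Noradrenergic5 lie at high Cplx2, cholinergic points at low Cplx2 over a wide span of Cplx1, and Glutamatergic and Noradrenergic1 points where both are low.

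All 3 synapsins were tested. Syn2 was by far the most counted, at 12.6 ± 2.27 (n = 10; 7.71 lowest, 12.9 median, 16 highest) in noradrenergic cells. Ach2 held 4.66, 4.53, 4.88 and 4.54, a narrow band below every noradrenergic collection, and Ach1 ran from 3.24 to 14.9 with a median of 7.66, overlapping them. Cholinergic cells had a log2 fold change of -1.09 ± 0.20 (adjusted p = 5.12e-06), lower in 7 of 7 collections, and -1.02 (adjusted p = 0.000153) without the Th-rich cells. Glutamatergic cells held 4.16, 1.04 and 11.9, the last from the Th-rich cell of P33 female, with a log2 fold change of -1.15 ± 0.35 (adjusted p = 0.0362). This Glutamatergic call was lost under RLE scaling, filterByExpr, DESeq2, the glial covariate and with no collection block (-0.98, adjusted p = 0.168), and without P31 female the value was -0.64 (adjusted p = 0.731). Without the Th-rich cell it was -2.35 (adjusted p = 4.32e-05), and after thinning -1.95. Syn1 was not called in these comparisons. Syn2 overlaps Timp4 in the annotation, and whether reads were counted by strand is not stated.

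Syn3 was the 1 member that rose in cholinergic cells. It was rare in noradrenergic cells at 0.213 ± 0.124 (n = 10; 0 lowest, 0.231 median, 0.333 highest). The Ach2 levels were 0.717, 1.01, 0.975 and 0.487, all above every pooled noradrenergic collection, and Ach1 ran from 0 to 7.18 with a median of 0.417. The single Noradrenergic1 cell of P30 female, however, had 2.66, above every Ach2 level. The log2 fold change of Syn3 in cholinergic cells was 1.31 ± 0.35 (adjusted p = 0.00701), higher in 5 of 7 collections. Without the P30 male collection, whose Ach1 cell held the 7.18, it was 1.05 (adjusted p = 0.102), after thinning 0.65 (adjusted p = 0.618), and with the glial level as covariate 1.20 (adjusted p = 0.0634). DESeq2 gave 1.41 (adjusted p = 0.101), and without the Th-rich cells it was 1.70 (adjusted p = 0.000980). Timp3, a tissue inhibitor of metalloproteinases, lies within Syn3 on the opposite strand. It was at 0.498 ± 0.306 in noradrenergic and 2.32 ± 3.76 in cholinergic cells, reached 10.8 in the same P30 male cell, and had a log2 fold change of 0.68 ± 0.49 (adjusted p = 0.568). Reads of the 2 genes cannot be told apart without strand.

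Of the Rab3 and Rims genes, 5 of 9 were tested and 2 were lower in cholinergic cells. Rab3b, a vesicle GTPase, had a level of 13.2 ± 3.02 (n = 10; 6.63 lowest, 13.5 median, 18.5 highest) in noradrenergic cells. The Ach2 levels were 11.1 (P16 female), 3.73 (P29 male), 4.10 (P30 female) and 3.25 (P38 male), and Ach1 ran from 0 to 6.58 with a median of 2.06. With Ach1 and Ach2 pooled, no cholinergic collection reached the lowest pooled noradrenergic one. Noradrenergic1 by itself overlapped cholinergic cells, with a Rab3b level of 3.55 in its single P30 female cell. The log2 fold change was -1.73 ± 0.22 (adjusted p = 1.50e-12), lower in 7 of 7 collections, and -2.37 (adjusted p = 1.27e-15) without the Th-rich cells. The Ach1 cell with 61 counts of Th had a Rab3b level of 13.1 and a Cplx2 level of 9.90, both within the noradrenergic range.

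Glutamatergic cells split on Rab3b. The level was 0.979 in P29 male and 0.345 in P31 female, but 11.2 in the Th-rich P33 female cell, which lies in the noradrenergic range. In the fit, Rab3b changed by -1.71 ± 0.37 (adjusted p = 0.000514) on the log2 scale with that cell and -4.37 (adjusted p = 2.05e-10) without it. Without P29 male it was -1.28 (adjusted p = 0.242) without P31 female -1.15 (adjusted p = 0.295), and with no collection block -1.40 (adjusted p = 0.218).

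Rab3d, better known from secretory granules of gland cells, was at 1.98 ± 0.80 (n = 10; 0.884 lowest, 1.95 median, 3.63 highest) in noradrenergic and 1.52 ± 0.44 (n = 7; 0.730, 1.77, 1.89) in pooled cholinergic cells. These overlapped widely, since Ach2 held 0.358, 0.705, 0.585 and 1.30 and Ach1 ran from 0.833 to 3.02. The log2 fold change was -1.04 ± 0.25 (adjusted p = 0.00101), lower in 6 of 7 collections. In libraries of at least 2 cells it was -0.69 (adjusted p = 0.280), and without the Th-rich cells -0.97 (adjusted p = 0.0159). Rab3a, the main neuronal Rab3, had 4.36 ± 1.22 and 3.54 ± 1.20 (log2 fold change -0.25 ± 0.20, adjusted p = 0.602). Rab3b made up 59.7% of the counts of Rab3a, Rab3b and Rab3c in noradrenergic cells (38.5% to 64.8% by collection), 28.5% in cholinergic (0% to 41.9%) and 42.2% in Glutamatergic cells (5.00% to 59.4%, the highest in the Th-rich cell). Rims2, the only Rims row that could be tested, had a log2 fold change of -0.03 in cholinergic cells.

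**Figure D4:**
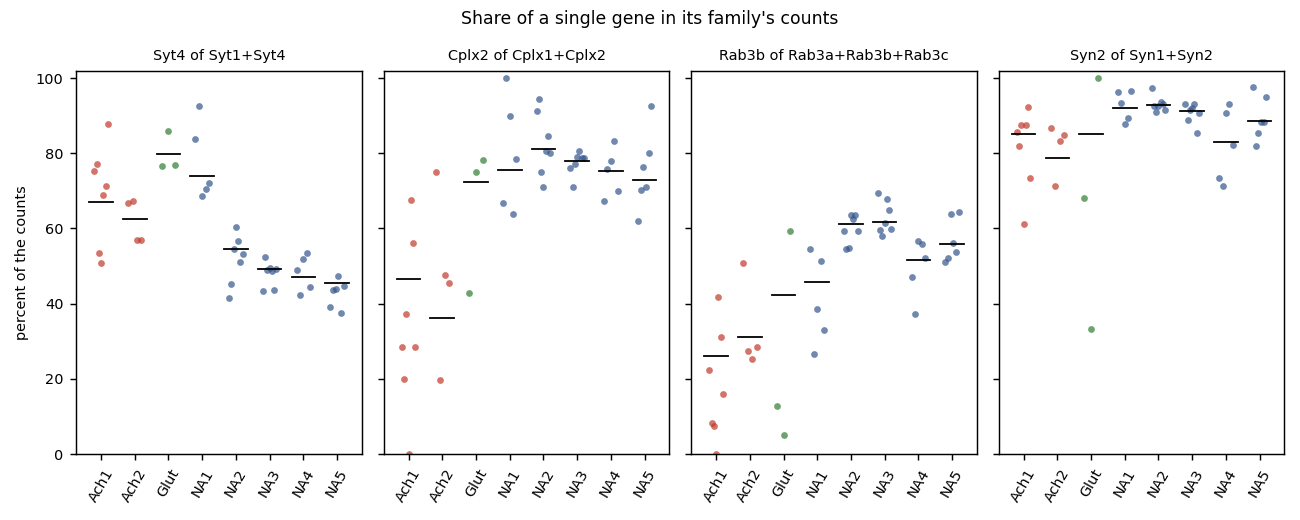
Percent of counts (vertical axis) that Syt4, Cplx2, Rab3b and Syn2 take among their close relatives, by identity. Points are collections and lines the pooled value. The share of Cplx2 stands at 72.8% to 81% in the noradrenergic identities and at 46.6% and 36.3% in Ach1 and Ach2.

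In the group of priming, vesicle and recycling factors, 6 of 9 were tested and only Nsf was called. Nsf, the ATPase that recycles SNAREs, was at 1.52 ± 0.40 (n = 10; 0.879 lowest, 1.55 median, 2.35 highest) in noradrenergic and 0.912 ± 0.267 (n = 7; 0.418, 1.02, 1.22) in pooled cholinergic cells. The groups overlapped, with the lower value in cholinergic cells in 7 of 7 collections. Nsf had a log2 fold change of -0.90 ± 0.27 (adjusted p = 0.0209), against -0.75 (adjusted p = 0.0768) under RLE scaling and -0.79 (adjusted p = 0.138) without the Th-rich cells. The call held in 6 of 11 alternatives and in 6 of 10 fits without a collection. It was also lost by DESeq2, after thinning and in libraries of at least 2 cells. Leaving out P16 female, P30 female, P31 female or P38 male lost it too. Sv2a, the most counted Sv2 gene, had -0.61 ± 0.24 (adjusted p = 0.151), and Sv2c had 0.81 (adjusted p = 0.0824). Snap91, a clathrin adaptor of vesicle recycling, had -0.58 ± 0.24 (adjusted p = 0.160). Unc13a, the main priming factor, had -0.85 ± 0.46 (adjusted p = 0.364).

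The 5 noradrenergic identities were then compared among themselves. In an F test for any difference, 5 of 55 members were called (Syt1, Cplx1, Cplx2, Rab3b and Syn2), where 5.06% of all genes were. Rab3b (adjusted p = 0.0113) and Syn2 (adjusted p = 0.0406) were lost in several alternatives, with no collection block at 0.346 and 0.0698 and Syn2 with the glial covariate at 0.0623, while Syt1 (adjusted p = 4.21e-05) held in all of them. Cplx2 was lost without P31 female or without P38 male (adjusted p up to 0.119), and Cplx1 without P38 male (adjusted p = 0.0522).

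Noradrenergic1, with 10 cells in 5 collections, was lower than the mean of the other 4 identities in 3 members (Syt1, Cplx2 and Cplx1), against 0.528% of all genes, and higher in 0, against 0.865% of all genes. edgeR gave 10 members at an unadjusted p under 0.05 and DESeq2 called 3. Syt1 was at 5.92 (P29 male), 2.66 (P30 female), 10.8 (P30 male), 10.5 (P31 female) and 10.0 (P38 male) in Noradrenergic1. Means in Noradrenergic2 to Noradrenergic5 were 17.4, 17.4, 21.7 and 19.7. Noradrenergic1 lay below the rest in every collection that held both. The log2 fold change of Syt1 was -1.61 ± 0.28 (adjusted p = 2.84e-06).

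Cplx2 in Noradrenergic1 was at 2.51, 4.43, 5.97, 2.03 and 1.69 in the same order of collections, against means of 8.01, 6.45, 9.04 and 8.40 in the other identities (log2 fold change -1.67 ± 0.32, adjusted p = 4.80e-05). Cplx1 was at 1.26, 0, 0.663, 1.15 and 0.462, against 1.52, 1.87, 3.03 and 2.54 (log2 fold change -1.61 ± 0.35, adjusted p = 0.000642). Both were lower in 4 of the 4 collections with a comparison. The Cplx1 level of 0 is that of a single P30 female cell, in which a count of 0 allows a level of up to 2.66, so its Cplx1 cannot be placed below the others. Both complexins were thus low together in Noradrenergic1, unlike in cholinergic cells. The Cplx1 call was lost without P38 male (-1.39, adjusted p = 0.0617) and after thinning (-1.23, adjusted p = 0.260). Syt4, in contrast, was at 30.8, 32.8, 23.6, 25.0 and 25.9 in Noradrenergic1, above the other identities in all 4 collections, and was not called. Stress genes summed to a median of 15.2 (9.50 to 50.0) per cell in Noradrenergic1, and 2 of the 12, Atf3 and Ier3, were called higher there. Whether this bears on the vesicle genes was not tested.

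Noradrenergic4 had 1 member that was higher, against 0.952% of all genes, and 0 lower, against 0.303% of all genes. edgeR gave 12 members at an unadjusted p under 0.05, and DESeq2 called 1. The member was Cplx1, at 3.53 (P11 female), 3.44 (P30 female), 2.90 (P31 female), 1.70 (P33 female) and 3.61 (P38 male). It was higher than in the other identities in 4 of 5 collections (log2 fold change 0.88 ± 0.23, adjusted p = 0.0109). Without P38 male it was 0.73 (adjusted p = 0.310). Noradrenergic2, Noradrenergic3 and Noradrenergic5 had 0 members called against the other 4, where 1.64%, 1.74% and 1.41% of all genes were called. In these, edgeR gave 10, 6 and 5 members at an unadjusted p under 0.05, and DESeq2 called 1, 0 and 1. The levels of Rab3b by identity were 7.87, 15.0, 14.5, 8.40 and 10.9 in Noradrenergic1 to Noradrenergic5, and those of Syn2 were 11.9, 14.9, 12.3, 8.58 and 8.74, so both genes had their highest mean in Noradrenergic2, where Rab3b differed from Noradrenergic3 by less than the spread of 2.10 (SD, n = 7).

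Ach1 and Ach2 were also compared with each other. None of the 55 members was called by edgeR, where 0.138% of all genes were, with 8 members at an unadjusted p under 0.05, and DESeq2 called 0. Without the Th-rich Ach1 cells, Rab3b was lower in Ach1 (log2 fold change -1.90, adjusted p = 0.0336). The mean level of Rab3b was 2.40 in Ach1 and 5.55 in Ach2, the latter raised by the single P16 female cell at 11.1. In Noradrenergic3, male collections (P29 and P38) were compared with 5 female collections. edgeR called 0 of 53 members tested, where 0.0296% of 10141 genes were called, with 2 members at an unadjusted p under 0.05. DESeq2 and the other alternatives that were run called 0.

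Further genes of the vesicle cycle were counted from lists by function. Of 32 tested partners in the vesicle membrane, docking and priming, 1 was higher in cholinergic cells, the scaffold gene Lin7a (log2 fold change 1.87 ± 0.37, adjusted p = 2.73e-05), where 2.17% of all genes were. In Glutamatergic cells 2 were lower, the calcium sensor Doc2b (-2.71, adjusted p = 0.0388) and the adaptor protein gene Apba1 (-2.17, adjusted p = 0.00106), where 1.01% of all genes were. Doc2b was near the floor there, at 0.163 ± 0.283 with a count in 1 of 4 cells, against 0.922 ± 0.353 in noradrenergic cells. Calls in these lists are given for the main fit only. Of 26 genes of vesicle endocytosis, the clathrin adaptor subunit Ap2s1 was the 1 lower in cholinergic cells (-0.89, adjusted p = 0.00632), where 2.4% of all genes were, and 0 were called in Glutamatergic cells, where edgeR gave 4 at an unadjusted p under 0.05. Of 13 subunits of the vesicular proton pump, which loads vesicles with acid, 0 were called in either comparison, with 3 and 0 at an unadjusted p under 0.05.

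Of 11 tested calcium channel genes, Cacna1c was higher in cholinergic (2.79, adjusted p = 0.0167) and Glutamatergic cells (4.24, adjusted p = 0.00485). Its levels were near the floor, at 0.206 ± 0.280 with a count in 6 of 16 cholinergic cells. Glutamatergic cells held 0.425 ± 0.278 with a count in all 4, and noradrenergic cells 0.0126 ± 0.0148 with a count in 12 of 193. The auxiliary subunit Cacna2d3 was lower in cholinergic cells (-1.89, adjusted p = 0.00640), and Cacna2d1 was higher in Glutamatergic cells (1.40, adjusted p = 0.00138) and lower in Noradrenergic1 (-1.40, adjusted p = 0.0109). Cacna2d3 was sparse in cholinergic cells, at 0.201 ± 0.243 with a count in 6 of 16. Noradrenergic cells held 0.462 ± 0.254 of it, with a count in 154 of 193. Over all genes, 2.17% were higher and 2.4% lower in cholinergic cells, 1.62% higher in Glutamatergic cells and 0.528% lower in Noradrenergic1. Lin7a also separated the noradrenergic identities, lower in Noradrenergic3 (-2.09, adjusted p = 0.000338) and higher in Noradrenergic5 (2.04, adjusted p = 0.000212). In Noradrenergic4 the Rab3 effector Rph3a (1.50, adjusted p = 0.000623), the fission GTPase Dnm1 (0.90, adjusted p = 0.0428) and the proton pump subunit Atp6v0d1 (0.90, adjusted p = 0.00671) were higher. The endocytic gene Sh3gl3 was higher in Noradrenergic2 (1.83, adjusted p = 0.00593) and Noradrenergic5 (2.04, adjusted p = 0.0143). In Noradrenergic5 the endocytic adaptor Amph (-1.15, adjusted p = 0.00679) and the active zone scaffold Bsn (-1.47, adjusted p = 0.0361) were lower. Of all genes, 0.952% were higher in Noradrenergic4, and 1.64% and 1.41% were called in Noradrenergic2 and Noradrenergic5.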

How the data were processed

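Single cells of the thoracic ganglion were measured with counts per gene that the authors deposited, in whole numbers up to 1888, for 16892 genes in 298 cells. The genome build is mm10, per the submitters' processing notes. The aligner, counter, annotation, strand and any collapsing of molecules are not given in the sources used here. Members, gene lists and tests were chosen with earlier results of these data known.

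Counts were summed per identity and collection into 44 libraries, with Unclassified cells left out of the comparisons. Genes reaching 20 counts in total and seen in 3 or more libraries entered a robust quasi-likelihood fit in edgeR 4.0.16 (R 4.3.3) after TMM scaling, with a term for identity and one for collection. F tests were two-sided, adjusted by Benjamini-Hochberg over all genes tested. The SE is the log2 fold change divided by the square root of F. DESeq2 1.42.0 and limma 3.58.1 (voom) were alternatives, with those listed in the closing section. Same-numbered libraries here are those of 1 collection: over 6620 genes, deviations from identity means correlated at 0.137 to 0.153 in 4 pairs from the same collection and at -0.0293 on average in 20 pairs from different ones, so the collection was kept as block. All members called in any comparison are named, with the most counted member of each family, except that some members are not reported here.

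Depth limits the small identities most. Library totals ran from 13927 to 101787 counts in Ach1, 27905 to 99235 in Ach2 and 28964 to 51100 in Glutamatergic cells, against 116917 to 1630214 in Noradrenergic3. A level of 1 is thus a handful of counts in a single cell. Shares and levels carry counting error from this, and intervals from counts alone were not used.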

Additional observations from a re-analysis of the deposited data

Results flagged for a closer look

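In 6 of the 63 groups of 4 to 10 collections examined, 1 collection stood far from the others by Dixon's gap test, where chance flags about 1 in 20. Rab3b in Ach2 was 11.1 in the single P16 female cell, with the next collection at 4.10. Syn2 in Noradrenergic5 was 5.61 in the 2 cells of P11 female, with the next at 8.45. Syt1 in Ach1 was 40.9 in the single P30 male cell, with the next at 16.5, and Syn3 in Ach1 was 7.18 in that same cell, with the next at 1.25. Syn3 in Noradrenergic1 was 2.66 in the single P30 female cell, with the next at 0.359. Syt9 in Noradrenergic2 was 1.45 in the 5 cells of P38 male, with the next at 1.10. In 5 of these 6 the collection held 1 or 2 cells.

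The change of Cplx1 against noradrenergic cells differed between Glutamatergic and cholinergic cells, with a log2 difference of -1.60 by edgeR (adjusted p = 0.0487).

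The 85 Unclassified cells entered no comparison, and 59 of the 73 members had more than 3 counts in them. Their mean levels over collections were 16.5 ± 5.45 for Syt1, 6.93 ± 1.20 for Cplx2 and 12.1 ± 1.59 for Rab3b.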

How the results depend on the processing

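Each comparison was refitted under 11 alternatives where these applied, and without each collection in turn. Of 22 gene calls, 8 held throughout: Cplx2, Rab3b, Syn2, Syt1 and Syt9 in cholinergic cells, Cplx2 and Syt1 in Noradrenergic1, and Syt1 among the noradrenergic identities. None of the calls that have a direction changed it; the F test among noradrenergic identities has none.

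Counts of called members that moved by more than 1.5 times are as follows, each after the main count. Cholinergic against noradrenergic (8) gave 5 in libraries of at least 2 cells. Glutamatergic against noradrenergic (4) gave 2 with filterByExpr and 2 with the glial covariate. Glutamatergic against cholinergic (1) gave 2 with filterByExpr, limma-voom and libraries of at least 2 cells, and 0 with no filter and after thinning. Ach1 against Ach2 (0) gave 1 without cells of 10 or more Th counts. Among noradrenergic identities (5), filterByExpr and DESeq2 gave 3. Noradrenergic2 (0) gave 1 with RLE and DESeq2, 2 with the chip as block and 4 in libraries of at least 2 cells. Noradrenergic3 (0) gave 1 with no filter, after thinning and with the glial covariate, and 4 with the chip as block and in libraries of at least 2 cells. Noradrenergic4 (1) gave 4 with RLE and in libraries of at least 2 cells, 0 with voom, and 2 after thinning, with the chip as block and with the glial covariate. Noradrenergic5 (0) gave 1 with DESeq2, the chip as block and libraries of at least 2 cells. The causes were not tested.

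With no replicate block, so without the pairing by collection, the counts were 2 for Glutamatergic against noradrenergic, 1 for Noradrenergic2 and 3 among noradrenergic identities. Leaving out 1 collection gave 7 to 9 for cholinergic and 0 to 5 for Glutamatergic against noradrenergic, 0 to 2 for Glutamatergic against cholinergic, 0 to 1 for Ach1 against Ach2, 1 to 5 among noradrenergic identities, 2 to 5 for Noradrenergic1, 0 to 1 for Noradrenergic2, 0 to 2 for Noradrenergic4, and 0 for Noradrenergic3, Noradrenergic5 and sex.

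Depth limits the rare members: 18 of 73 could not be tested, and 16 of 44 libraries are a single cell.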
